A study of Mus musculus with 11 samples.

Results

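Matrix metalloproteinases and their tissue inhibitors (TIMPs) were followed in mouse GL261 gliomas in which the small GTPase Rheb1 was deleted from Cx3cr1-expressing cells. The 10 genes were taken by name from genes linked to glioma invasion (Mmp2, Mmp3, Mmp9, Mmp12, Mmp13, Mmp14, Mmp19, Timp1, Timp2 and Timp3), of 50686 genes counted, and all 10 were found. The series holds 11 libraries, each from C57BL/6 mice that carried GL261, a mouse glioma line grafted into the brain. Bulk tumours gave 3 Rheb1 KO and 3 WT libraries from formalin-fixed, paraffin-embedded (FFPE) tissue, and tumour-associated microglia (TAM-MG), sorted as live CD11b+ CD45low cells, gave 3 Rheb1 KO and 2 WT libraries. Rheb1 KO mice carried Rheb1 with a floxed exon 3 and the knock-in Cx3cr1-CreERT2 allele, so that Cre acts only in cells that use the Cx3cr1 promoter. The animals labelled WT had the floxed Rheb1 without Cre. Both genotypes received tamoxifen 3 weeks before tumour cells were injected at 6 weeks of age, and tumours were collected about 3 weeks later. Rheb1 (annotated as Rheb) had 225, 125 and 146 CPM (counts per 1000000 counts of a library, after TMM scaling) in Rheb1 KO bulk tumours, against 348, 235 and 329 CPM in WT bulk tumours. In TAM-MG it had 67.8, 70 and 71.2 CPM in Rheb1 KO, against 86.5 and 164 CPM in WT. The genotypes did not overlap in either experiment. Groups did not overlap downwards for 9.23% of all genes tested in bulk tumours and 11.5% in TAM-MG. Rheb had an adjusted p = 0.426 in bulk tumours and 0.552 in TAM-MG (edgeR's quasi-likelihood test, Benjamini-Hochberg). Reads outside exon 3 keep being counted in a deleted gene.

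Matrix metalloproteinases are zinc enzymes that are made as inactive precursors and cut collagen, elastin, gelatin and other proteins of the extracellular matrix and cell surface. TIMPs bind the active site and block it, and some also take part in activation, as TIMP2 does when it links the precursor of MMP2 to MMP14 on the cell membrane. In gliomas, microglia and macrophages, vascular cells and tumour cells can all be sources of these enzymes, and microglial MMP14 is known for its part in glioma invasion.

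The 7 enzymes share the catalytic zinc site, which is shown because it is what makes them one family and what TIMPs reach. Each line gives 33 bases (11 codons) of the coding sequence of the longest protein-coding transcript in GENCODE on GRCm38, with the 3 histidine codons that hold the zinc in capitals.
Mmp2: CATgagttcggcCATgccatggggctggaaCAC
Mmp9: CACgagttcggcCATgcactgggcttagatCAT
Mmp13: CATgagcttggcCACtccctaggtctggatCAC
Mmp3: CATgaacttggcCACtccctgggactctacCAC
Mmp12: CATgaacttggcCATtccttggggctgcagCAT
Mmp14: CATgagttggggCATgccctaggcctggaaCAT
Mmp19: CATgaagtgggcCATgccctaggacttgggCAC
Over the 21 pairs of enzymes, 20 to 27 of the 33 bases were identical.

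On GRCm38, Mmp2 lies at chr8:92827291-92853420, Mmp9 at chr2:164940780-164955850, Mmp14 at chr14:54431612-54445364 and Mmp19 at chr10:128790910-128800824, all on the plus strand. Timp1 lies at chrX:20870166-20874735 and Timp3 at chr10:86300372-86349506 on the plus strand, and Timp2 at chr11:118301069-118355740 on the minus strand. Mmp13 (chr9:7272514-7283331), Mmp12 (chr9:7344381-7369499) and Mmp3 (chr9:7445822-7455975) belong to a run of 10 Mmp genes over 427.1 kb of chromosome 9. Mmp1b lies between Mmp12 and Mmp3, overlaps Mmp12 on the opposite strand and had no count in any of the 11 libraries. The 250 bases upstream of a start site are shown for these 3 genes of the run, from RefSeq on GRCm38, with the AP-1 motif (TGACTCA, or TGAGTCA on the other strand) in capitals. They run along the plus strand at chr9:7272264-7272513, chr9:7347124-7347373 and chr9:7445572-7445821.
Mmp13: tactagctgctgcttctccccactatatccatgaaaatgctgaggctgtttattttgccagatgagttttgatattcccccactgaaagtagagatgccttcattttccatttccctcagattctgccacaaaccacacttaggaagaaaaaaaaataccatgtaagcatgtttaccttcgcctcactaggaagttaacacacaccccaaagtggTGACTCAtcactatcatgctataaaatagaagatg
Mmp12: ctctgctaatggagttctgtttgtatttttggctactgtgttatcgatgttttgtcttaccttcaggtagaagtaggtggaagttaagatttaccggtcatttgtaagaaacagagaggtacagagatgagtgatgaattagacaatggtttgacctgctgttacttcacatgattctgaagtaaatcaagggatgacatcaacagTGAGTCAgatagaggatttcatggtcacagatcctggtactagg
Mmp3: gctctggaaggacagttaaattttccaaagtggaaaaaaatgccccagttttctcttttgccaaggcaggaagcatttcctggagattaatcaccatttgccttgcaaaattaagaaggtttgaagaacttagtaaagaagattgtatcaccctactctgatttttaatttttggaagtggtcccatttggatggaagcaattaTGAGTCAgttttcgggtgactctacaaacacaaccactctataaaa
The motif began at position -35 for Mmp13, at -44 for the second listed start site of Mmp12 and at -46 for Mmp3, counted from the start site. The first listed start site of Mmp12 held none. Of the genes described here, 7 had a window, and 3 of their 8 windows held the motif, against 1466 of 32851 windows of all genes (4.46%). A match of letters is a description and was not tested as a binding site.

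Total counts per library were 14940787 to 19798998 in Rheb1 KO and 15606224 to 21991348 in WT bulk tumours, and 22132236 to 25945816 in Rheb1 KO and 20765767 to 29947977 in WT TAM-MG. Intervals and floors given for single counts cover counting error only. In bulk tumours all 5 markers of microglia and macrophages (Aif1, Csf1r, Itgam, Ctss and C1qa) were lower in Rheb1 KO, with a median log2 fold change of -1.63 against 0.00 over all 17028 genes tested, and 4 of the 5 had an unadjusted p under 0.05. Their summed level was 385 to 961 CPM in Rheb1 KO and 1519 to 3133 CPM in WT. Fewer cells of a type and less RNA per cell cannot be told apart in bulk tumours, here and in all that follows. In TAM-MG the same 5 markers summed to 25415 to 28907 CPM in Rheb1 KO and 21936 to 30447 CPM in WT. Markers of fibroblasts and pericytes summed to 3.87 to 33.4 CPM over the 5 TAM-MG libraries. Lum and Pdgfrb were at 0 in all 5, and Rgs5 averaged 9.24 CPM. Markers of endothelial cells summed to 81.0 to 96.6 CPM in Rheb1 KO and 50.5 to 62.1 CPM in WT TAM-MG. Those of astrocytes summed to 101 to 112 CPM in Rheb1 KO and 53.7 to 147 CPM in WT TAM-MG. Those of oligodendrocytes summed to 89.7 to 118 CPM in Rheb1 KO and 144 to 180 CPM in WT TAM-MG.

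The first comparison asked which of the 10 genes differ in whole tumours when Rheb1 is lost from Cx3cr1-expressing cells. Of the enzymes, Mmp12, Mmp9 and Mmp19 were lower in every Rheb1 KO tumour than in any WT tumour. Of the inhibitors, Timp3 was higher in every Rheb1 KO tumour. The other 6 genes overlapped between genotypes. Groups did not overlap downwards for 9.23% and upwards for 7.82% of all genes tested. edgeR's quasi-likelihood test, Benjamini-Hochberg called 0 of 17028 genes at an adjusted p under 0.05 and a change of 1.5-fold (0% in either direction), and so none of the 10. At an unadjusted p under 0.05 it gave Mmp12 and Mmp9 lower and Timp3 higher, where 5.19% of all genes tested were lower and 3.82% higher. Mmp12, Mmp9 and Mmp19 passed the filter on low counts through the WT tumours, where they were high. With at least 10 counts required in every library, 5 of the 10 genes were tested, these 3 not among them. Of those 5, 0 had an unadjusted p under 0.05. The median log2 fold change of the 10 was -0.13.

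**Figure D1:**
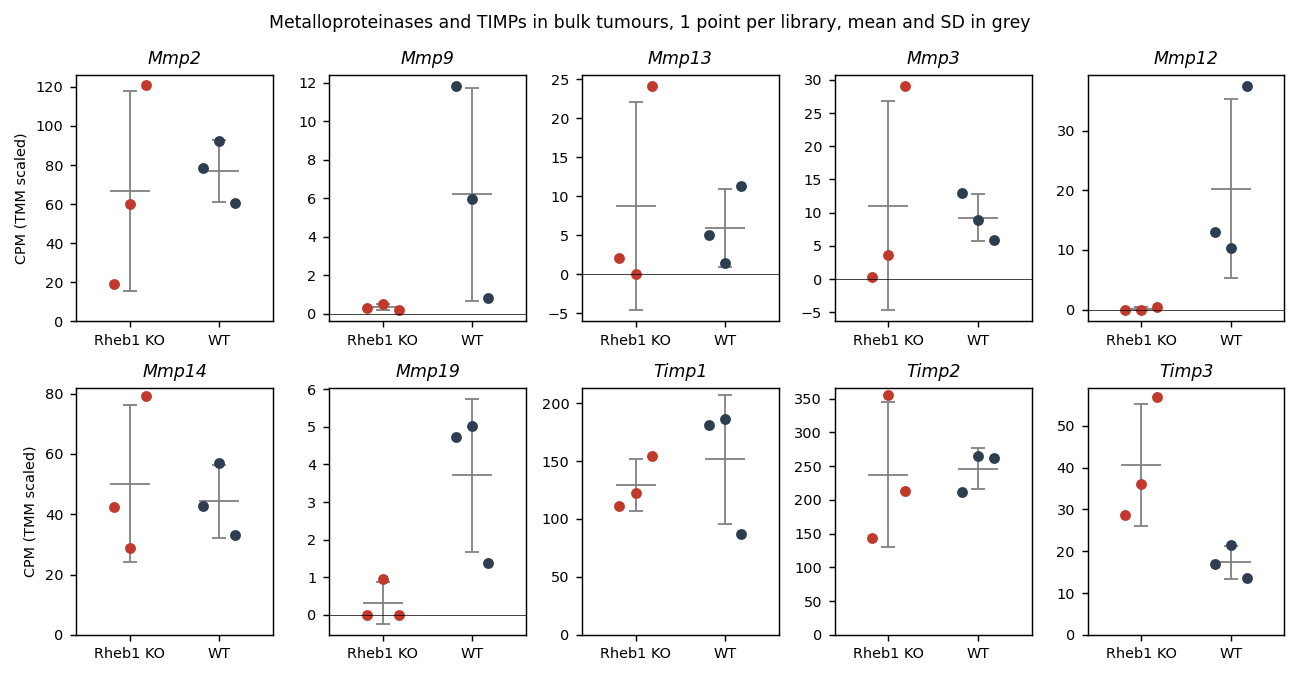
CPM of each gene in bulk tumours, on linear axes of its own, with 1 point per library (3 Rheb1 KO in red, 3 WT in dark blue) and the mean and SD in grey. Mmp12, Mmp9 and Mmp19 were lower and Timp3 was higher in all 3 Rheb1 KO libraries, and 1 Rheb1 KO library lay above all others for 5 of the 10 genes.

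Among the gelatinases and collagenases, Mmp2 encodes gelatinase A, a constitutive enzyme that cleaves basement membrane collagen. It had 19.2, 60.3 and 121 CPM in the Rheb1 KO libraries 26, 36 and 37, against 78.7, 92.2 and 60.5 CPM in the WT libraries 35, 38 and 110. The Rheb1 KO libraries held both the lowest and the highest value, and the log2 fold change was -0.21 ± 0.55 (SE; 95% interval -1.42 to 1.01). Without the library 26 it was 0.23.

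Mmp9 encodes gelatinase B, which is inducible and is stored by neutrophils and made by macrophages. Its counts were 4, 8 and 4 in Rheb1 KO tumours (0.282, 0.511 and 0.209 CPM), against 213, 132 and 13 in WT tumours (11.8, 5.93 and 0.811 CPM). WT 110 lay close to the Rheb1 KO range and far below the other WT tumours. The log2 fold change was -4.19 ± 1.55 (SE), with an unadjusted p = 0.0209 and an adjusted p = 0.431 (edgeR's quasi-likelihood test, Benjamini-Hochberg). Neutrophil markers were scarce in either genotype, at a sum of 0.767 to 12.1 CPM in Rheb1 KO and 0.899 to 7.67 CPM in WT, with Ly6g, Camp and Ngp at 0 in all 6 tumours. Their part in the Mmp9 values was not tested.

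Mmp13, collagenase 3, opens fibrillar collagen. It had 2.04, 0.0639 and 24.2 CPM in Rheb1 KO tumours, against 5.06, 1.44 and 11.3 CPM in WT tumours. One Rheb1 KO tumour was thus the lowest, with a single count, and another the highest. The log2 fold change was 0.57 ± 1.57 (SE), and -2.49 without the library 37.

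Mmp3, stromelysin 1, cuts proteoglycans and laminin and activates other metalloproteinases. It had 0.352, 3.64 and 29.1 CPM in Rheb1 KO tumours, against 12.9, 8.85 and 5.87 CPM in WT tumours. Rheb1 KO tumours 26 and 36 lay below all WT tumours and Rheb1 KO 37 above them. The log2 fold change was 0.26 ± 1.27 (SE), and -2.20 without the library 37.

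Mmp12, macrophage elastase, degrades elastin and is made mainly by macrophages. It had counts of 0, 0 and 9 in Rheb1 KO tumours (0, 0 and 0.471 CPM), against 234, 230 and 602 in WT tumours (13.0, 10.3 and 37.6 CPM). A count of 0 allows up to 3 counts, which is 0.211 CPM in Rheb1 KO 26 and 0.192 CPM in Rheb1 KO 36. The genotypes were far apart, with the lowest WT tumour at 230 counts and the highest Rheb1 KO tumour at 9. The log2 fold change was -6.88 ± 1.63 (SE; 95% interval -10.48 to -3.28), which is 118-fold lower, with an unadjusted p = 0.00150 and an adjusted p = 0.190 (edgeR's quasi-likelihood test, Benjamini-Hochberg). The exact permutation test on log2(CPM + 1) gave p = 0.1 (two-sided), the smallest that 3 against 3 allow. The gene was called lower by edgeR's likelihood ratio test (Benjamini-Hochberg adjusted p = 0.00154), by DESeq2 (adjusted p = 3.92e-06) and by the quasi-likelihood test without a filter on low counts (adjusted p = 0.0422). The likelihood ratio test called 1.53% of all genes lower and 0.722% higher. That share was not counted for DESeq2 or for the test without a filter. Over the 15 alternatives that tested Mmp12, the adjusted p ran up to 0.526, the value without WT 110.

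Because the markers of microglia and macrophages were lower in the same tumours, Mmp12 was set against them, a ratio chosen after the values were seen. Per 1000 CPM of the 5 summed markers, Mmp12 had 0, 0 and 0.490 CPM in Rheb1 KO tumours, against 8.56, 5.82 and 11.99 CPM in WT tumours. Per 1000 CPM of Csf1r, the receptor that macrophages and microglia depend on, it had 0, 0 and 3.39 CPM in Rheb1 KO tumours, against 67.9, 39.8 and 122 CPM in WT tumours. Rheb1 KO 26 and 36 had 0 Mmp12 counts, so their ratio was 0 with any denominator and could not come out otherwise. In Rheb1 KO 37 both ratios were below those of every WT tumour. The part of the markers in the Mmp12 values was not tested. In TAM-MG the ratio to the 5 markers was 0.485 to 1.05 in Rheb1 KO and 0.579 to 1.30 in WT, with overlap. The ratio to Csf1r was 3.24 to 8.02 in Rheb1 KO TAM-MG and 8.16 to 11.3 in WT TAM-MG, without overlap and by a narrow margin. Csf1r itself was higher in Rheb1 KO TAM-MG without overlap, at a log2 fold change of 0.76 ± 0.32 (SE). Groups did not overlap upwards for 14.6% of all genes tested there. The CPM of Mmp12 overlapped, at a log2 fold change of -0.09, so the lower ratio does not show less Mmp12. No share over all genes was counted for such ratios. Cells and RNA source differ between the experiments, so the ratio is compared between genotypes within each. Markers of monocyte-derived cells (Ccr2, Itga4, Ly6c2, Chil3 and Plac8) summed to 33.6 to 95.7 CPM in Rheb1 KO tumours and 90.8 to 397 CPM in WT tumours. Of the 5, 4 had a negative log2 fold change and 2 an unadjusted p under 0.05 (edgeR's quasi-likelihood test). Itga4, which encodes CD49d, was at 0.42 ± 0.49 (SE). By flow cytometry with CD49d and P2RY12, the study reported more bone marrow-derived macrophages and fewer TAM-MG in Rheb1 KO tumours, so these RNA sums do not stand for cell numbers. In TAM-MG the markers of monocyte-derived cells summed to 52.8 to 74 CPM in Rheb1 KO and 81.3 to 89.0 CPM in WT. Their part in the Mmp12 values was not tested.

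**Figure D2:**
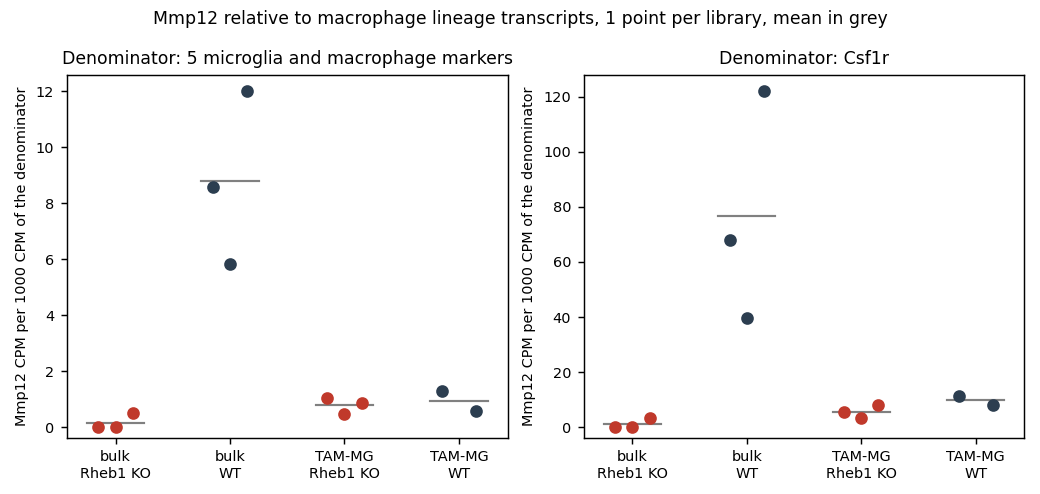
Mmp12 CPM per 1000 CPM of 5 summed microglia and macrophage markers (left) or of Csf1r (right), with 1 point per library in each of the 4 groups and the mean as a grey line. On the left axis Rheb1 KO bulk tumours stood at 0 to 0.490, below all WT bulk tumours (5.82 to 11.99), and the TAM-MG genotypes overlapped (0.485 to 1.05 in Rheb1 KO and 0.579 to 1.30 in WT). On the right axis Rheb1 KO was below WT in bulk tumours (0 to 3.39 against 39.8 to 122) and in TAM-MG (3.24 to 8.02 against 8.16 to 11.3). In TAM-MG the denominator Csf1r was itself higher in Rheb1 KO. Rheb1 KO bulk tumours at 0 had no Mmp12 count, so their ratio is 0 with any denominator.

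Mmp14 encodes a membrane-anchored enzyme that cuts collagen at the cell surface and activates the precursor of MMP2. It had 42.4, 28.8 and 79.2 CPM in Rheb1 KO tumours, against 42.6, 57.1 and 33.2 CPM in WT tumours. The genotypes overlapped and the log2 fold change was 0.18 ± 0.47 (SE; 95% interval -0.86 to 1.22). It was -0.32 without the library 37 and -0.19 in the deposited TPM.

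Mmp19 encodes a broad matrix enzyme that is made by several cell types, myeloid cells included. Its counts were 0, 15 and 0 in Rheb1 KO tumours, against 85, 112 and 22 in WT tumours. The groups did not overlap, although 15 and 22 counts are close, and the log2 fold change was -3.51 ± 1.94 (SE) with an adjusted p = 0.642 (edgeR's quasi-likelihood test, Benjamini-Hochberg). In the deposited TPM, which Salmon estimates per transcript, the groups overlapped, at 0, 1.87 and 0.718 in Rheb1 KO and 3.04, 2.96 and 1.42 in WT. Mmp19 shares 789 exon bases with Tmem198b on the opposite strand, and counting by strand was not stated, so that reads of either gene cannot be told apart there.

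Of the inhibitors, Timp1 is inducible and secreted by many cell types of tumours. It had 111, 122 and 155 CPM in Rheb1 KO tumours, against 181, 186 and 87.3 CPM in WT tumours. The Rheb1 KO values lay inside the WT range, and the log2 fold change was -0.23 ± 0.35 (SE; 95% interval -1.0 to 0.55).

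Timp2 is constitutive and blocks or assists MMP2 according to its amount. It had 144, 355 and 213 CPM in Rheb1 KO tumours, against 211, 265 and 261 CPM in WT tumours. Rheb1 KO tumours held the lowest and the highest value, with a log2 fold change of -0.05 ± 0.35 (SE; 95% interval -0.83 to 0.72), which turned to 0.21 without the library 26.

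Timp3 binds to the matrix and blocks ADAM proteases as well as metalloproteinases. It had 28.8, 36.1 and 57.0 CPM in Rheb1 KO tumours, against 17, 21.4 and 13.5 CPM in WT tumours. Every Rheb1 KO tumour was above every WT tumour, with a log2 fold change of 1.23 ± 0.52 (SE), an unadjusted p = 0.0373 and an adjusted p = 0.505 (edgeR's quasi-likelihood test, Benjamini-Hochberg). In the deposited TPM the genotypes overlapped, at 39.1, 29.5 and 39.6 in Rheb1 KO and 24.4, 36.5 and 23.2 in WT, and the difference on log2(TPM + 1) was 0.37. Timp3 shares 1733 exon bases with Syn3 on the opposite strand, whose own counts were 0, 13 and 110 in Rheb1 KO tumours and 146, 26 and 56 in WT tumours. Of the 9 genes with a bulk TPM value (Mmp9 is not among the genes used there), only Mmp12 kept the genotypes apart on that scale.

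Rheb1 KO 37 was the highest of the 6 tumours for 5 of the 10 genes (Mmp2, Mmp13, Mmp3, Mmp14 and Timp3). The chromosome 9 genes Mmp13, Mmp12 and Mmp3 did not follow each other: Mmp13 and Mmp3 peaked in Rheb1 KO 37, where Mmp12 had 9 counts. In the same library the summed markers of neurons (985 CPM) and astrocytes (781 CPM) were the lowest of the 6 tumours. Those of fibroblasts and pericytes stood at 271 CPM there, within 115 to 342 CPM in Rheb1 KO and below 302 to 364 CPM in WT. The part of tissue composition in these values was not tested.

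As a description of likeness over the 6 tumours, the genes with the highest Pearson r of log2(CPM + 1) to Mmp2 were Rpap1 (0.992), Atp10a (0.991) and Tmed3 (0.988), of 13232 genes with a mean of at least 5 CPM. For Timp2 they were Mllt6 (0.992), S100a4 (0.985) and Tbc1d24 (0.984). These libraries also share their depth and their composition.

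The wider family and its substrates were read from 2 lists. Of 18 other metalloproteinases and inhibitors, 10 were tested in bulk tumours, of which 6 had a negative and 4 a positive log2 fold change, 0 at an unadjusted p under 0.05, with a median of -0.17. Mmp17, a membrane-anchored enzyme, was the most abundant and averaged 53.6 ± 7.01 CPM in Rheb1 KO and 74.4 ± 11.3 CPM in WT (SD, n = 3 each), with a log2 fold change of -0.47 ± 0.34 (SE). Mmp16, likewise membrane-anchored, had 0.27 ± 0.47, and Timp4, an inhibitor of the brain and heart, 0.43 ± 0.60. Mmp15 had 1.0 ± 0.56, Reck, a membrane inhibitor, -0.28 ± 0.80, and Mmp11, stromelysin 3, -0.07 ± 0.96.

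Of 38 genes of matrix proteolysis (activators and other proteases, inhibitors and clearance, substrates), 37 were tested, 22 with a negative and 15 with a positive log2 fold change, and a median of -0.43 against 0.00 over all genes. None was called, and 7 were lower and 1 higher at an unadjusted p under 0.05, where 5.19% of all genes tested were lower and 3.82% higher. Fn1, the matrix protein fibronectin, averaged 104 ± 31.1 CPM in Rheb1 KO and 406 ± 187 CPM in WT (SD, n = 3 each), and its groups did not overlap. Its log2 fold change was -1.96 ± 0.39 (SE), with an adjusted p = 0.154 (edgeR's quasi-likelihood test, Benjamini-Hochberg). Cd44, a hyaluronan receptor that anchors MMP9 at the cell surface, averaged 154 ± 27.7 CPM in Rheb1 KO and 337 ± 44.5 CPM in WT, without overlap, at a log2 fold change of -1.13 ± 0.28 (adjusted p = 0.206, edgeR's quasi-likelihood test, Benjamini-Hochberg). Spp1, osteopontin, had a log2 fold change of -2.33 ± 0.89 with overlapping groups, Lcn2, which protects MMP9 from degradation, -0.44 ± 0.80, Sparc, a matrix protein, 0.14 ± 0.33, and Bsg, which induces metalloproteinases, 0.09 ± 0.30. Among activators and proteases, 4 of 16 were lower and 1 higher at an unadjusted p under 0.05, and among substrates 3 of 14 were lower.

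The second comparison asked the same of sorted TAM-MG, one of the cell types in which the Cx3cr1 promoter drives Cre. Mmp9 had no count in any of the 5 libraries, which allows at most 0.155 CPM in the shallowest, and Mmp3 had 200 counts (8.92 CPM) in Rheb1 KO 54 and 0 in the other 4 libraries. Both fell under the filter on low counts, which left 8 of the 10 genes. Timp1 and Timp3 were lower in every Rheb1 KO library than in any WT library and the other 6 overlapped, where groups did not overlap downwards for 11.5% and upwards for 14.6% of all genes tested. edgeR's quasi-likelihood test, Benjamini-Hochberg called 0 of 14872 genes (0% in either direction) and gave 0 of the 8 at an unadjusted p under 0.05, where 2.3% of all genes were lower and 5.47% higher. The likelihood ratio test (0.471% of all genes lower and 1.18% higher), DESeq2 and limma on TPM called 0 of these genes too. The median log2 fold change was -0.38 over the 8 genes and 0.08 over all genes.

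**Figure D3:**
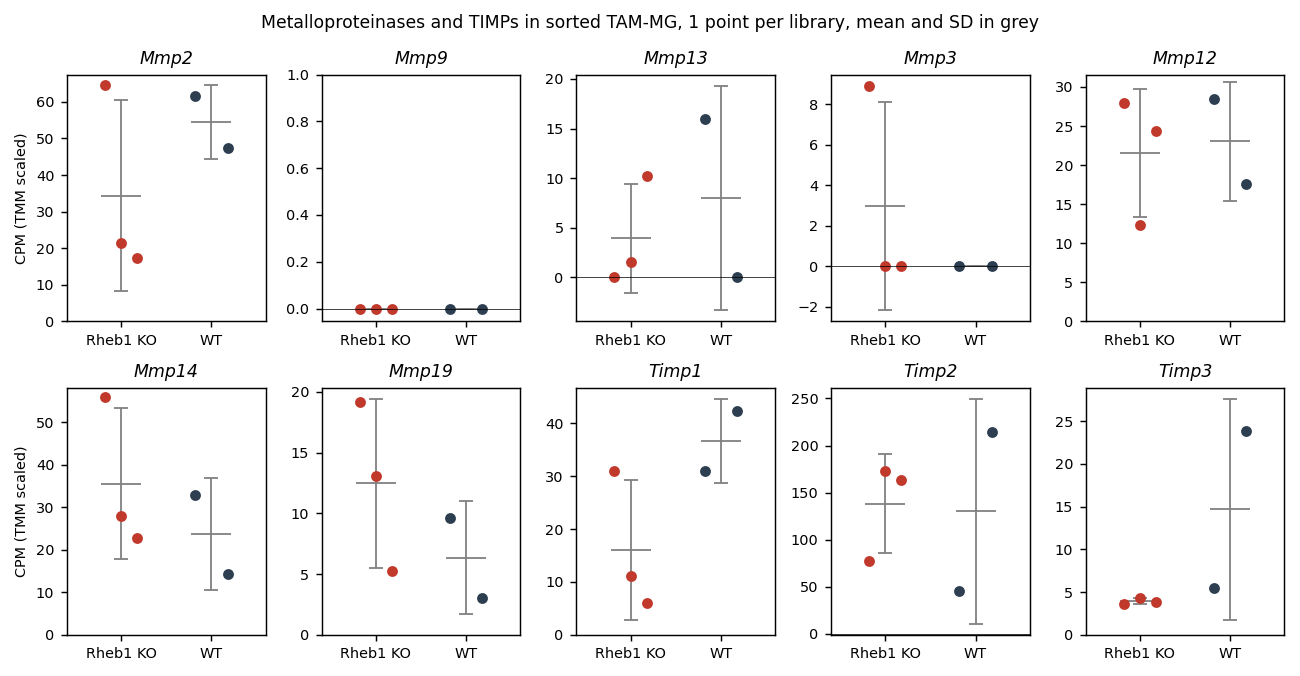
CPM of each gene in sorted TAM-MG, on linear axes of its own, with 1 point per library (3 Rheb1 KO in red, 2 WT in dark blue) and the mean and SD in grey. Mmp9 was at 0 in all 5 libraries and Mmp3 in 4, and Mmp12 overlapped between genotypes at 12.3 to 28.4 CPM.

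Mmp12, the gene furthest apart in whole tumours, had 28.0, 12.3 and 24.4 CPM in Rheb1 KO TAM-MG, against 28.4 and 17.6 CPM in WT TAM-MG. All 5 libraries held it, at 321 to 912 counts, and the genotypes overlapped. The log2 fold change was -0.09 ± 0.60 (SE; 95% interval -1.57 to 1.38).

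Mmp2 had 64.5, 21.3 and 17.3 CPM in Rheb1 KO, against 61.7 and 47.4 CPM in WT, with a log2 fold change of -0.66 ± 0.65 (SE) and overlapping groups. Mmp14 had 55.9, 28.0 and 22.8 CPM in Rheb1 KO, against 33 and 14.4 CPM in WT, at 0.59 ± 0.63. Rheb1 KO 54 was the highest library for Mmp2 and Mmp14 and the only one with Mmp3. Mmp13 was split within each genotype, at 0, 1.57 and 10.2 CPM in Rheb1 KO and 16 and 0 CPM in WT, and its log2 fold change of -1.03 ± 2.79 became 9.51 without WT 74.

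Mmp19 had 19.1, 13.1 and 5.23 CPM in Rheb1 KO, against 9.63 and 3.05 CPM in WT, with a log2 fold change of 0.97 ± 1.03 (SE) and overlapping groups. In the deposited TPM all Rheb1 KO libraries (2.48, 1.72 and 1.66) were above both WT libraries (0.488 and 0.0199). The 2 scales thus differ for Mmp19, whose opposite-strand neighbour Tmem198b had 715, 278 and 208 counts in Rheb1 KO and 617 and 75 in WT.

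Timp1 had 31.0, 11.1 and 5.97 CPM in Rheb1 KO TAM-MG, against 31.1 and 42.3 CPM in WT TAM-MG. The highest Rheb1 KO library and the lower WT library were almost level. The log2 fold change was -1.20 ± 0.78 (SE; 95% interval -3.10 to 0.71), with an adjusted p = 0.757 (edgeR's quasi-likelihood test, Benjamini-Hochberg), and the order was the same in TPM.

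Timp2 had 77.8, 173 and 164 CPM in Rheb1 KO, against 45.9 and 214 CPM in WT, and both WT libraries lay outside the Rheb1 KO range. Its log2 fold change was 0.09 ± 0.69 (SE).

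Timp3 had 3.61, 4.30 and 3.8 CPM in Rheb1 KO TAM-MG, against 5.52 and 23.8 CPM in WT TAM-MG. The distance rested on WT 78, and the log2 fold change was -1.91 ± 1.0 (SE; adjusted p = 0.633, edgeR's quasi-likelihood test, Benjamini-Hochberg), or -0.49 without that library. In the deposited TPM the genotypes overlapped, at 1.59, 0.900 and 0.825 in Rheb1 KO and 1.34 and 5.18 in WT. Syn3 on the opposite strand had 25, 39 and 91 counts in Rheb1 KO and 178 and 224 in WT, so that the counts of these overlapping genes were both lower in Rheb1 KO.

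In TAM-MG 10 of the 18 other metalloproteinases and inhibitors were tested, 7 with a negative and 3 with a positive log2 fold change, 0 at an unadjusted p under 0.05, with a median of -0.41. The 6 most abundant were Mmp16 (-1.36 ± 2.21), Mmp24 (0.52 ± 1.15), Mmp11 (-0.71 ± 0.95), Timp4 (-0.26 ± 1.40), Mmp17 (-0.02 ± 2.87) and Mmp25 (-0.68 ± 2.83), each given as log2 fold change ± SE and none above 9.38 CPM on average. Of the genes of matrix proteolysis, 29 were tested, 1 lower and 2 higher at an unadjusted p under 0.05 (2.3% lower and 5.47% higher over all genes), with a median of -0.25 against 0.08 over all genes. The most abundant were Sparc (0.35 ± 0.25), Serpine2, a protease inhibitor (-0.70 ± 0.73), Spp1 (-1.08 ± 0.79), Bsg (-0.33 ± 0.30), the sheddase Adam10 (0.48 ± 0.39) and Fn1 (0.14 ± 0.94). Sparc averaged 2038 ± 211 CPM in Rheb1 KO (SD, n = 3) and 1595 ± 111 CPM in WT (SD, n = 2), without overlap.

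**Figure D4:**
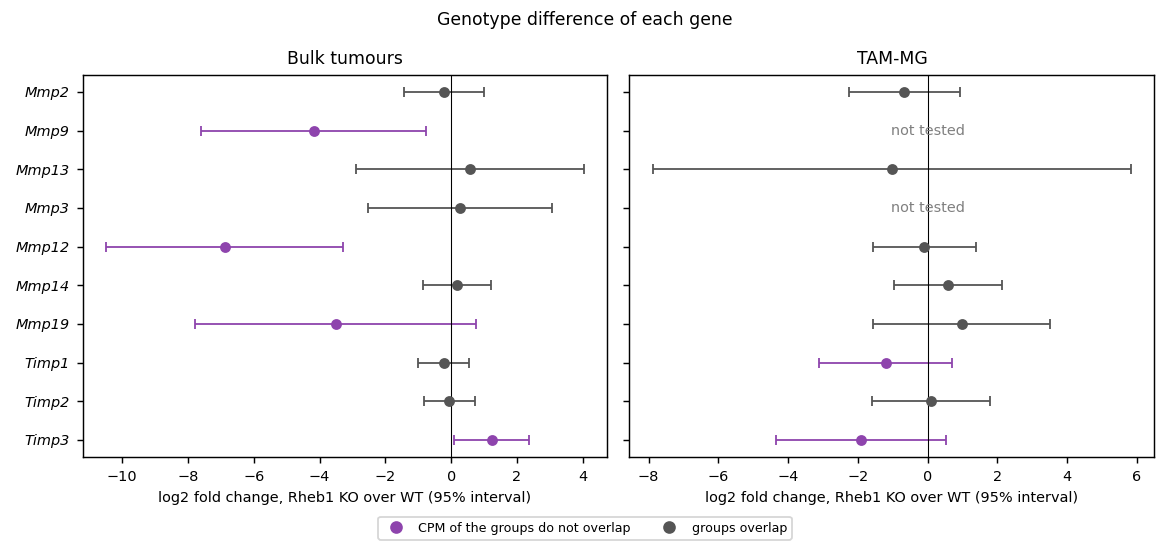
Log2 fold change of Rheb1 KO over WT for each gene in bulk tumours (left) and TAM-MG (right), with bars for the 95% interval, in purple where the CPM of the genotypes did not overlap and in grey where they did. Mmp12 stood at -6.88 in bulk tumours and -0.09 in TAM-MG, and Timp3 at 1.23 in bulk tumours and -1.91 in TAM-MG.

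An interaction term over all 11 libraries tested if the genotype difference was the same in TAM-MG as in bulk tumours, for the 8 genes with counts in every group. For Mmp12 the log2 fold change in TAM-MG exceeded that in bulk tumours by 6.83 ± 1.87 (SE; 95% interval 2.73 to 10.93), with an unadjusted p = 0.00358 and an adjusted p = 0.224 (edgeR's quasi-likelihood test, Benjamini-Hochberg). For Timp3 the difference was -3.11 ± 1.02 (SE), with an unadjusted p = 0.0106 and an adjusted p = 0.290 (edgeR's quasi-likelihood test, Benjamini-Hochberg), and -1.60 with an adjusted p = 0.580 without WT 78 of TAM-MG. None of the 8 was called, where 0.0281% of 21342 genes were called lower and 0.197% higher. The other 6 had an unadjusted p above 0.05, a level that 2.93% of all genes passed downwards and 9.3% upwards. The likelihood ratio test called Mmp12 (adjusted p = 0.00495), as it did 0.806% of all genes lower and 3.11% higher. DESeq2 called Mmp12 (adjusted p = 1.71e-04) and Timp3 (adjusted p = 0.00863), and its share of all genes was not counted. The markers of microglia and macrophages moved in the same way as Mmp12, with all 5 differences positive and 4 at an unadjusted p under 0.05. Their median was 2.31 against 0.30 over all genes. Markers of resting microglia (P2ry12, Tmem119, Cx3cr1, Sall1 and Siglech) had a median of 2.84. They summed to 7046 to 9723 CPM in Rheb1 KO and 3841 to 5027 CPM in WT TAM-MG. In bulk tumours they summed to 24.5 to 98.4 CPM in Rheb1 KO and 178 to 321 CPM in WT. Cx3cr1 carries the CreERT2 knock-in in Rheb1 KO animals only, and the effect of that allele on its counts was not tested. The part of either list in the Mmp12 and Timp3 differences was not tested.

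The third comparison set the levels in TAM-MG against those in bulk tumours. Cells and RNA source differ together here and cannot be told apart, and the labels do not give the library run. The median log2 fold change over all genes was -0.89 (TAM-MG over bulk), and 32.4% of genes were called lower and 20.5% higher, so values are read against that shift. Mmp9 and Timp1 were called lower and Mmp12 and Mmp19 higher in TAM-MG (edgeR's quasi-likelihood test, Benjamini-Hochberg).

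Mmp9 was at 0 in all 5 TAM-MG libraries and between 0.174 and 9.71 CPM in the 6 bulk tumours, so it was at least 90.2-fold lower in TAM-MG by a floor of 3 counts over the group (adjusted p = 0.00686, edgeR's quasi-likelihood test, Benjamini-Hochberg). The bound was 43.2-fold without WT 35, the highest tumour, and 9.38-fold against Rheb1 KO tumours alone. It was not called among Rheb1 KO libraries alone (adjusted p = 0.0567). Timp1 had 7.5 to 52.5 CPM (median 36.8) in TAM-MG and 72.1 to 155 CPM (median 116) in bulk tumours, without overlap. Its log2 fold change was -1.96 ± 0.44 (SE; adjusted p = 0.00383, edgeR's quasi-likelihood test, Benjamini-Hochberg), below the median of all genes, and -1.49 with an adjusted p = 0.102 in WT libraries alone.

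Mmp12 had 15.7 to 35 CPM (median 30.7) in TAM-MG and 0 to 31.0 CPM (median 4.5) in bulk tumours, with a log2 fold change of 4.14 ± 0.89 (SE; adjusted p = 0.00304, edgeR's quasi-likelihood test, Benjamini-Hochberg). The call depended on the Rheb1 KO libraries, as the log2 fold change was 7.56 among Rheb1 KO libraries, and 0.73 (adjusted p = 0.652) among WT libraries. Mmp19 had 3.78 to 23.9 CPM (median 11.4) in TAM-MG and 0 to 4.19 CPM (median 0.968) in bulk tumours, at 3.58 ± 1.19 (adjusted p = 0.0269, edgeR's quasi-likelihood test, Benjamini-Hochberg). It was 1.31 among WT libraries (adjusted p = 0.550), and its call was also lost without any of WT 35, 38 and 110 of the bulk tumours, Rheb1 KO 54 or WT 74 of TAM-MG (adjusted p of 0.0579 to 0.0873). The deposited TPM of Mmp19 averaged 1.27 (0.0199 to 2.48) in TAM-MG and 1.67 (0 to 3.04) in bulk tumours. These TPM were not scaled jointly and do not settle the direction. Listed genes sum to 617080 to 642370 per bulk library and to 1000000 per TAM-MG library. Tmem198b, which overlaps it on the opposite strand, had 75 to 715 counts in TAM-MG and 0 to 131 in bulk tumours, and its part in the Mmp19 counts was not tested.

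The remaining 6 genes were not called. Mmp3 had a log2 fold change of -5.80 ± 2.26 (adjusted p = 0.0510) and Timp3 -1.23 ± 0.53 (adjusted p = 0.0674, both edgeR's quasi-likelihood test, Benjamini-Hochberg). Mmp2 had -0.16 ± 0.49, Mmp14 -0.14 ± 0.42, Timp2 -0.26 ± 0.41 and Mmp13 0.20 ± 1.66, all above the median of all genes. Without WT 78 of TAM-MG, Timp2 (-1.19, adjusted p = 0.0310) and Timp3 (-2.10, adjusted p = 0.0174) were called lower as well (edgeR's quasi-likelihood test, Benjamini-Hochberg). In the wider family, Mmp10, Mmp15, Mmp21, Timp4 and Reck were called lower in TAM-MG, and Mmp24 and Mmp25 higher. Of the genes of matrix proteolysis, 12 were called higher, namely Plau, Plaur, Adam10, Adam15, Adam17, Bsg, Serpine2, Lrp1, Thbs1, Spp1, Fn1 and Sparc. The 16 called lower were A2m, Adam12, Adam19, Adamts1, Adamts4, Adamts5, Adamts9, Bcan, Cd44, Dag1, Hspg2, Lama5, Lcn2, Nid1, Plat and Tnc.

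Levels of different genes were compared per length, as CPM per kb of exons. In TAM-MG the order was Timp2 (34.6 ± 18.1), Timp1 (27.4 ± 17.1), Mmp2 (12.6 ± 6.56), Mmp14 (5.17 ± 2.62), Mmp12 (3.06 ± 0.967), Mmp19 (2.84 ± 1.81), Mmp13 (2.08 ± 2.70), Timp3 (1.01 ± 1.08), Mmp3 (0.990 ± 2.21) and Mmp9 (0), as mean ± SD over 5 libraries. In bulk tumours it was Timp1 (158 ± 45.0), Timp2 (62.0 ± 18.2), Mmp2 (21.4 ± 10.2), Mmp14 (7.92 ± 3.09), Mmp3 (5.62 ± 5.69), Timp3 (3.56 ± 1.96), Mmp13 (2.75 ± 3.43), Mmp12 (1.41 ± 2.01), Mmp9 (0.922 ± 1.34) and Mmp19 (0.570 ± 0.647), as mean ± SD over 6 libraries. Timp1 and Timp2 stood at the top in both, followed by Mmp2 and Mmp14, and Timp3 stood below these. The steps from Timp1 to Timp2 and from Timp2 to Mmp2 held in 6 of 6 bulk tumours, and those from Timp1 to Mmp2 and from Mmp2 to Mmp14 in 5 of 5 TAM-MG libraries. Timp2 and Timp1 did not differ beyond their spread in TAM-MG (Timp2 above in 3 of 5), and no step below Mmp14 held in all libraries of either experiment. In the deposited TPM the order in bulk tumours began with Timp1, Mmp2 and Timp2, and Timp3 stood in place 4.

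**Figure D5:**
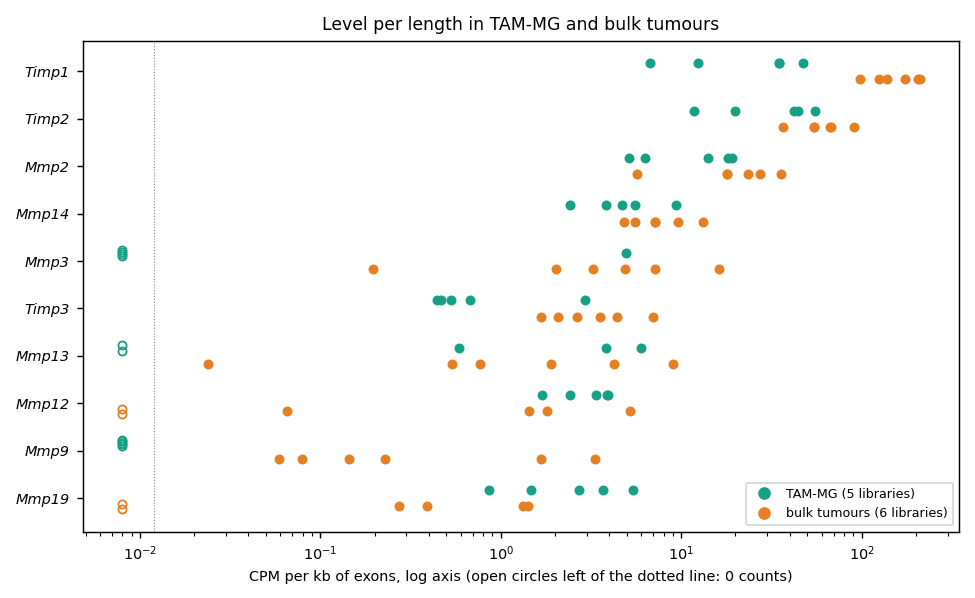
CPM per kb of exons on a log axis for each gene, with TAM-MG (green, 5 libraries) above bulk tumours (orange, 6 libraries), and open circles left of the dotted line for libraries with 0 counts. Timp1 did not overlap between the experiments, and Mmp9 was at 0 in all 5 TAM-MG libraries.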

How the data were processed

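Gene counts deposited by the authors came from STAR, and the deposited TPM values from Salmon, both on Ensembl GRCm38, and tool versions are not given in the sources used here. The bulk TPM table lists 12719 genes. The TAM-MG TPM, entered as a signal because an unnamed total row stands under the deposited values, was used without that row. SmartSeq2 libraries hold no molecular identifiers, and whether counting used strand was not stated. RNA from FFPE tissue is fragmented. The main test was the quasi-likelihood test of edgeR 4.0.16 (R 4.3.3) with TMM scaling and Benjamini-Hochberg adjustment, on genes kept by filterByExpr (minimum count 10, minimum total 15), within each experiment, and over all 11 libraries for the interaction and for TAM-MG against bulk. Calls needed 1.5-fold and an adjusted p below 0.05, the thresholds in the study's methods. The study's legends name edgeR's likelihood ratio test, and its legend for TAM-MG genes gives another cutoff. It reported differentially expressed genes in both experiments. Run here as an alternative, that test called 260 genes lower and 123 higher in bulk tumours. In TAM-MG it called 70 lower and 175 higher. The main test was also run on simulated data. That check set limits on false calls and on direction, and none on the share of true changes called. Alternatives were DESeq2 1.42.0, edgeR's likelihood ratio test, limma 3.58.1 on log2(TPM + 1) and log2(TPM + 0.1), other scalings and filters, and leaving out each library. CPM are TMM scaled within an experiment, and jointly where TAM-MG was set against bulk tumours. Exon lengths and loci come from GENCODE on GRCm38. No pair of libraries agreed within counting noise. Labels do not say whether libraries of a group came from separate animals, so p-values measure the spread between these samples. One marker of the microglia and macrophage list is not reported here and was left out of its sums. The genes and lists were chosen with earlier results of these data known. Named genes were all 10 and Rheb, the 6 most abundant of each list per comparison and any called gene of a list, and the 3 genes most like the enzyme and the inhibitor of highest CPM in bulk tumours (not corrected for length).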

Additional observations from a re-analysis of the deposited data

Results flagged for a closer look

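Timp3 had log2 fold changes of opposite sign in the experiments, and the test of the difference was not past the threshold. In counts, all 3 Rheb1 KO libraries were above all 3 WT libraries in bulk tumours (log2 fold change 1.23), and all 3 Rheb1 KO libraries were below both WT libraries in TAM-MG (-1.91). The difference between TAM-MG and bulk tumours was -3.11 on the log2 scale, with an adjusted p = 0.290 by edgeR's quasi-likelihood test (Benjamini-Hochberg), and -1.60 (adjusted p = 0.580) without WT 78 of TAM-MG. In the deposited TPM the genotypes overlapped in both experiments.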

How the results depend on the processing

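No paired analysis was possible because the replicate numbers of Rheb1 KO and WT libraries are not shared. In bulk tumours the number of the 10 genes called lower was 0, and it became 1 (Mmp12) without a filter, with the likelihood ratio test and with DESeq2. In the interaction, 0 were called higher, and 1 (Mmp12) with the likelihood ratio test and with DESeq2, which also called 1 lower (Timp3). In TAM-MG against bulk tumours, 2 were called lower, and this became 4 with DESeq2 size factors, library size only, the likelihood ratio test and DESeq2 (Mmp3 and Timp3 besides Mmp9 and Timp1), and 1 (Mmp9) among WT libraries. The number called higher was 2, and it became 1 with library size only, and 0 among WT libraries and with at least 10 counts in every library, where 5 genes were tested. Leaving out each library gave 2 to 4 called lower and 1 to 2 called higher there, and 0 in the other comparisons. In TAM-MG against bulk tumours the main test called 32.4% of all genes lower and 20.5% higher. The likelihood ratio test called 38.3% of all genes lower and 22.2% higher there. Such shares were not counted for DESeq2, other scalings, other filters or libraries left out.

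Directions turned as follows, as log2 fold changes, and the cause was not tested. In bulk tumours, TPM with a pseudocount of 1, with or without a filter, gave Mmp13 -0.004, Mmp3 -0.675 and Mmp14 -0.193, and a pseudocount of 0.1 gave -0.612, -1.344 and -0.205. Leaving out each library gave -0.957 to 0.232 for Mmp2, -2.487 to 1.42 for Mmp13, -2.198 to 0.83 for Mmp3, -0.315 to 0.458 for Mmp14 and -0.464 to 0.205 for Timp2. In TAM-MG, Mmp12 was 0.007 with a pseudocount of 1, with or without a filter, and 0.006 with 0.1. Leaving out each library gave -0.386 to 0.311 for Mmp12, -3.334 to 9.51 for Mmp13 and -0.62 to 1.602 for Timp2. In the interaction the ranges were -1.174 to 0.369 for Mmp2, -3.715 to 9.012 for Mmp13 and -0.525 to 1.778 for Timp2. In TAM-MG against bulk tumours they were -0.709 to 0.06 for Mmp2 and -5.182 to 1.545 for Mmp13. There, Mmp13 was -0.323 with library size only and -0.559 among Rheb1 KO libraries, Mmp14 was 0.094 among Rheb1 KO libraries, and Mmp2 was 0.048 and Timp3 0.331 among WT libraries. The median of all genes was -0.89 with TMM, -1.06 with DESeq2 size factors and -1.45 with library size only. Mmp12 in bulk tumours stayed negative under all 15 alternatives that tested it, between -11.45 and -2.25. It dropped out with at least 10 counts in every library.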
